A study of Mus musculus with 12 samples.

Results

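Activity-regulated genes of the *Tpp1*-/- mouse brain, the immediate early genes and the effector genes that follow them, are described here in the cerebellum (Cb) and in the forebrain and midbrain (F/M). They were listed by gene symbol, as 41 of the 52459 genes in the count tables. Of these, 26 encode rapid transcription factors: 9 of the AP-1 and related leucine zipper group, 4 of the EGR family, 3 of the NR4A family, 3 of the KLF family and 7 other nuclear proteins. The other 15 are effectors: 10 that feed back on signaling and 5 that act at synapses or are secreted.

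Immediate early genes are transcribed within minutes of synaptic activity, growth factors or stress, from promoters already occupied by factors such as CREB and SRF, and their transcription needs no new protein synthesis. Many of their products are transcription factors that then switch on later genes, and others act directly on synapses or on the kinases that started the response. In the brain, their resting level follows the ongoing activity of neurons, and glia and vessels express several of them as well.

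The *Tpp1*-/- mouse carries a gene-targeted disruption of *Tpp1*, which encodes the lysosomal protease tripeptidyl peptidase 1, and models classic late infantile neuronal ceroid lipofuscinosis (cLINCL). RNA from Cb and F/M of *Tpp1*-/- males (T) and wild-type male siblings (N), all 4 months of age, gave 12 libraries, with 3 for each of the groups Cb-N, Cb-T, F/M-N and F/M-T. The disruption is present in every cell of the T animals, and the labels name no other treatment. Neither the time of day at death nor whether the libraries of a group are separate animals is stated in the labels, so p-values measure only the spread between these libraries, which may be technical. The paper took RNA from 3 mice, which can be read as 3 of each genotype.

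Library totals ranged from 21428379 to 24458189 counts. The listed genes took between 0.0913% and 0.116% of the counts in the Cb libraries and between 0.183% and 0.269% in the F/M libraries. *Tpp1* was at 112, 114 and 112 normalized counts (CPM, scaled to a common library size) in Cb-N and at 27.96, 31.0 and 30.0 CPM in Cb-T, and at 94.3, 88.7 and 87.7 CPM in F/M-N against 23.9, 21.8 and 23.3 CPM in F/M-T, so every library matched its genotype label. For the listed genes, the spread between libraries of a group was near counting error except in F/M-N: the median coefficient of variation of listed genes with at least 200 counts was 4.64% in Cb-N, where counting alone would give 4.60%, 5.45% against 5.02% in Cb-T, 5.35% against 3.02% in F/M-N and 2.85% against 3.43% in F/M-T. Over all genes, the chi-square per degree of freedom between pairs of libraries of a group ran from 1.28 to 3.59, so every pair varied beyond counting error.

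Promoters of 4 of the genes that changed are shown because they hold motifs of the factors that read activity signals or of the EGR proteins themselves. *Nr4a2* was called lower in Cb alone, and *Maff* and *Nr4a1* lower in F/M alone. *Egr2* was called lower in F/M. In Cb it had enough counts for testing in Cb-T alone, so it could only be called higher there. Each is the 250 bases before a RefSeq transcription start (GRCm38.p6), on the strand of the gene, with the motif in capitals. *Egr2*, at chr10:67537619-67537868 on the plus strand, holds a CArG box, the core of the serum response element bound by SRF, from base -72 relative to the start. *Maff*, at chr15:79347270-79347519 on the plus strand, holds an EGR motif from base -88 and a full cAMP response element from base -29. *Nr4a1*, at chr15:101266596-101266845 on the plus strand, holds an EGR motif from base -60, and *Nr4a2*, at chr2:57124004-57124253 on the minus strand, holds an EGR motif from base -74.
Egr2: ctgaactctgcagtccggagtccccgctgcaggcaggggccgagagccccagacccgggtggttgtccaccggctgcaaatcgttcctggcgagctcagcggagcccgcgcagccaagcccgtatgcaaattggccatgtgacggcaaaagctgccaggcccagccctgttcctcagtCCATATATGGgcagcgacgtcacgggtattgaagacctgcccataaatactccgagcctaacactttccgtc
Maff: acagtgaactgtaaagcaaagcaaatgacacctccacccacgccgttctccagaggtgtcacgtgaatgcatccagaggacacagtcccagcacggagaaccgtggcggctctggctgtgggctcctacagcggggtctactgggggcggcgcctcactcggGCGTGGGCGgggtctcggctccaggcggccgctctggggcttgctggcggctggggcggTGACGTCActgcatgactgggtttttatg
Nr4a1: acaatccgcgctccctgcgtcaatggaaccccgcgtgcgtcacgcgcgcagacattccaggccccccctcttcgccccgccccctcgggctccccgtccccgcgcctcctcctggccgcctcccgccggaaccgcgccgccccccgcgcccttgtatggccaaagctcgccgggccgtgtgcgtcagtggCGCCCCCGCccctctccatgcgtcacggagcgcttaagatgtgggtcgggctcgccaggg
Nr4a2: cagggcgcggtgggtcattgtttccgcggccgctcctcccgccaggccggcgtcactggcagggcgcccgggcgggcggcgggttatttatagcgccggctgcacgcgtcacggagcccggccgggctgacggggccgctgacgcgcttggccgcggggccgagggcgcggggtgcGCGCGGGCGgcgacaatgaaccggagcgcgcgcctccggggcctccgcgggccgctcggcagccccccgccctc

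Over the windows from 250 bases before to 50 after each RefSeq start, 30 of the 41 genes had a sequence. *Fosl1*, *Egr1*, *Egr3*, *Klf10*, *Crem*, *Ier2*, *Dusp4*, *Sik1*, *Trib1*, *Arc* and *Nptx2* had none. Both strands were searched, and a gene counted once however many of its starts held a motif. The EGR motif (GCGNGGGCG) was in 11 of the 30 genes (36.7%) and in 6.27% of the 27025 genes with a window: *Fosb*, *Fosl2*, *Maff*, *Nr4a1*, *Nr4a2*, *Klf2*, *Klf4*, *Nfil3*, *Btg2*, *Rgs2* and *Gadd45b*. The cAMP response element (TGACGTCA) was in 3 (10%, against 2.03%), *Maff*, *Btg2* and *Dusp1*, and the CArG box in *Egr2* and *Dusp5* (6.67%, against 1.81%). The AP-1 site (TGACTCA) was in *Csrnp1* alone (3.33%, against 5.95%), and the NR4A monomer site (AAAGGTCA) in none of the 30 (against 1.70%). These are matches of letters in a short window and no measure of binding.

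The resting levels of these genes differed widely between the control areas. Scaled by exon length (RPKM, mean of 3 libraries), *Arc*, which encodes a cytoskeletal protein of stimulated synapses, was the highest in F/M-N at 111 RPKM, followed by the zinc finger factor gene *Egr1* at 91.3 RPKM and the orphan nuclear receptor gene *Nr4a1* at 50.9 RPKM. In Cb-N the highest was *Dusp5*, which encodes a nuclear phosphatase of ERK, at 45.8 RPKM, ahead of *Fos* at 38.2 RPKM and *Jund* at 30.8 RPKM, AP-1 subunits both. *Fosl1* was lowest in both areas, at 0.0222 RPKM in Cb-N and 0.0635 RPKM in F/M-N. The strand setting of the counting is not known here. In the GENCODE models, antisense exons cover 57.2% of the *Fosl1* exon bases, 52.6% of those of *Jund*, 22.1% of those of *Dusp5* and 14.4% of those of *Bdnf*. For *Crem*, *Junb*, *Jun*, *Csrnp1* and *Dusp1* the share was between 0.332% and 8.01%. Reads of the partner genes may be included in these 9.

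A gene was called where the edgeR false discovery rate (FDR) was below 0.1 and the fold change at least 1.5, the limits used in the study. The study further kept only genes that passed with at least 2 of 4 tools, while calls here rest on edgeR alone. Between Cb-N and F/M-N, 24 of the 40 tested genes were lower in Cb, where 22.8% of all 16725 tested genes were, and 2 were higher, where 19.2% of all were. *Egr2* met the count minimum for this test (about 10 counts in all 3 libraries of a group) in F/M-N alone, so its direction was set by the filter. All 4 EGR genes and all 5 synaptic or secreted genes were among the lower. The log2 difference (Cb-N minus F/M-N) was -7.24 for *Egr2*, -7.06 for *Egr3*, -5.43 for the AMPA receptor clustering gene *Nptx2*, -4.01 for *Arc*, -3.35 for *Junb* and -2.88 for *Egr1*. The 2 genes higher in Cb were *Dusp5*, by 2.57, and *Nfil3*, a leucine zipper repressor gene, by 0.88 on the log2 scale. *Fos*, the gene most used as a marker of activity, was at 89.8 ± 0.90 CPM in Cb-N against 92.3 ± 0.92 CPM in F/M-N (SD, n = 3), and showed a log2 difference of -0.04 with an edgeR FDR of 0.24.

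**Figure D1:**
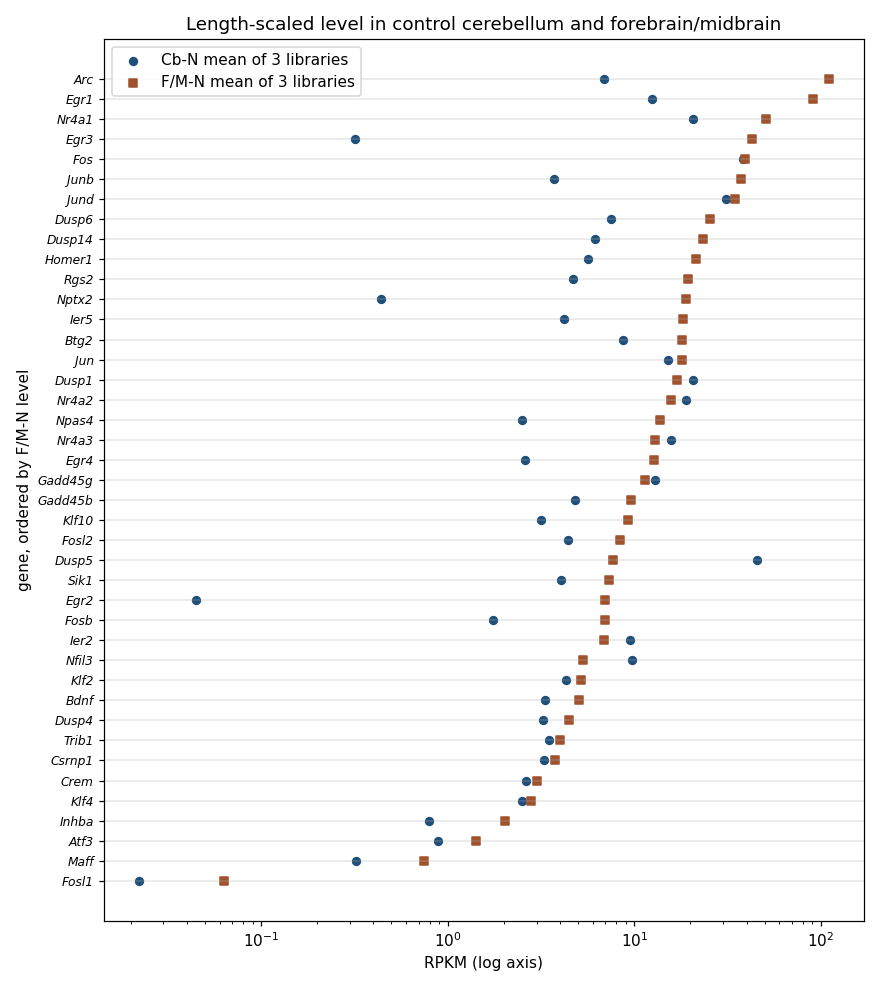
Length-scaled level (RPKM on a log axis) of the 41 genes in control cerebellum (circles, Cb-N) and control forebrain/midbrain (squares, F/M-N), each the mean of 3 libraries, ordered by the F/M-N level. Most circles lie to the left of their squares, farthest for *Egr2*, *Egr3* and *Nptx2*, and *Dusp5* lies far to the right.

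In F/M the mutant change ran one way. Of 40 tested genes, 12 fell in F/M-T and 0 rose by edgeR, DESeq2 or limma-voom (2 were higher at an unadjusted edgeR p below 0.05). The 12 were *Fosb*, *Fosl2*, *Maff*, *Egr1*, *Egr2*, *Egr3*, *Nr4a1*, *Nr4a3*, *Dusp4*, *Dusp5*, *Arc* and *Homer1*. Over all 16665 genes tested in F/M, 0.858% were called lower and 2.63% higher. Without the limit on fold change, 30 of the 40 were lower at an FDR below 0.1 (14.4% of all genes), 1 was higher (12.8% of all) and 9 did not pass, and the median log2 fold change was -0.39 against 0.01 over all tested genes. The 41 genes summed to 2689, 2711 and 2786 CPM in F/M-N and to 1842, 1844 and 1847 CPM in F/M-T, 67.6% of the control mean.

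In Cb the genes moved in both directions. Of 40 tested, 5 rose in Cb-T (*Atf3*, *Egr2*, *Egr3*, *Nptx2* and *Inhba*) and 7 fell (*Fosb*, *Fosl2*, *Nr4a2*, *Nr4a3*, *Dusp4*, *Dusp5* and *Homer1*), where 8.54% of all 16382 tested genes were called higher and 2.66% lower. *Egr2* met the count minimum for testing in Cb-T alone, so it could only be called higher, and the other 4 that rose met it in both groups. Without Cb-N2, 8 were called higher and 8 lower, and without Cb-N3, 7 higher and 6 lower. Without the limit on fold change, 13 were higher (29.8% of all genes), 20 lower (27.9% of all) and 7 did not pass, and the median log2 fold change was -0.13 against 0.01 over all genes. The counts of higher genes, with and without that limit, were near the shares of all genes. The sum went from 1111, 1105 and 1151 CPM in Cb-N to 904, 893 and 873 CPM in Cb-T, 79.3% of the control mean.

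Set side by side, 6 genes were called lower in both areas (*Fosb*, *Fosl2*, *Nr4a3*, *Dusp4*, *Dusp5* and *Homer1*), 2 were called higher in Cb and lower in F/M (*Egr2*, by the filter in Cb as said, and *Egr3*), and 24 were called in neither. Of the 15706 genes tested in both areas, 0.287% were called lower in both, 0.0764% higher in Cb and lower in F/M, and 88.6% in neither. *Nr4a2* was called lower in Cb alone, *Atf3*, *Nptx2* and *Inhba* higher in Cb alone, and *Maff*, *Egr1*, *Nr4a1* and *Arc* lower in F/M alone. *Fosl1* had too few counts to be tested in either area. Whether the change itself differed between the areas was tested as an interaction and is given after the single genes. In bulk tissue, fewer cells that express a gene and less RNA per cell cannot be told apart.

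**Figure D2:**
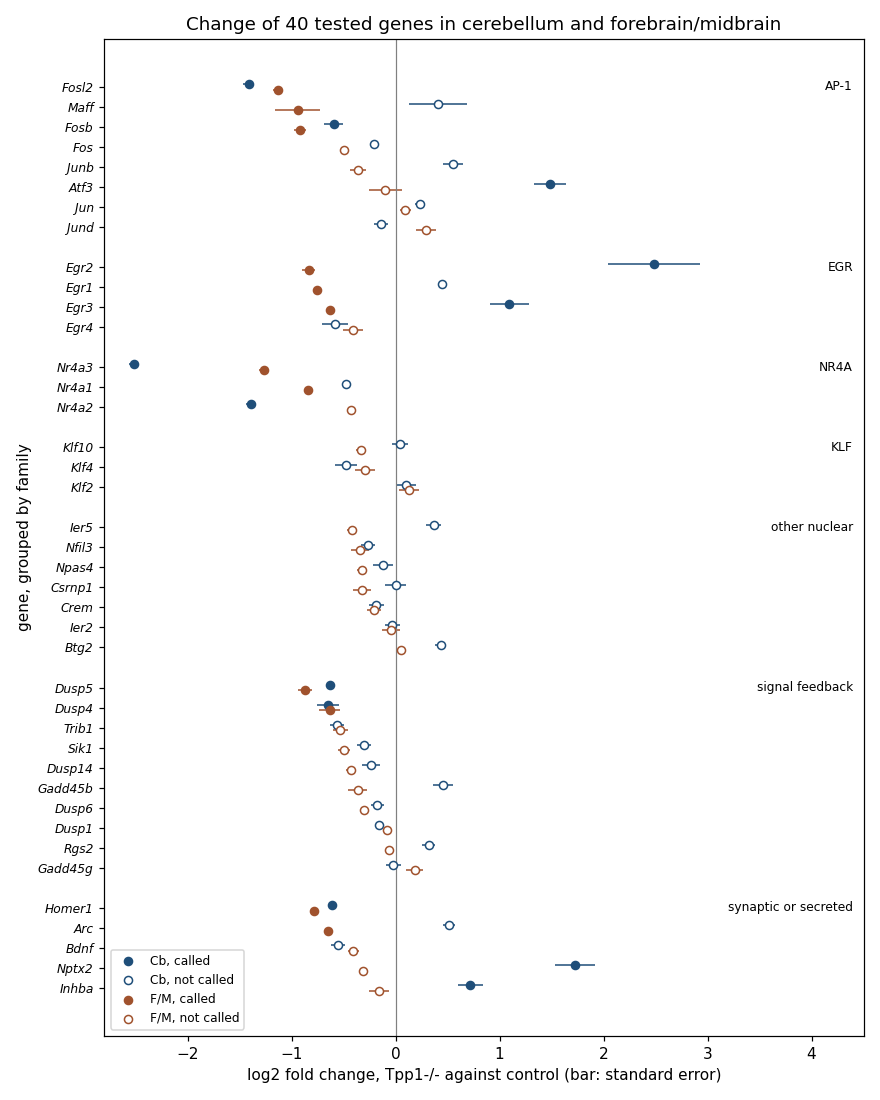
Log2 fold change (T against N, x axis) with its standard error for the 40 tested genes, grouped by family, in Cb (blue, upper point of each pair) and F/M (brown, lower point). Filled points were called at an FDR below 0.1 and at least 1.5-fold: in F/M all 12 lie left of 0, and in Cb 5 lie right of 0 and 7 left.

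Among the AP-1 genes, *Fosl2* fell most. *Fosl2*, which encodes a FOS-family partner of JUN, was at 44.0, 41.6 and 42.5 CPM in Cb-N and at 15.1, 16.1 and 16.5 CPM in Cb-T, and its log2 fold change (log2FC) was -1.41 (standard error, SE, 0.0543, edgeR FDR = 5.1e-25). In F/M it went from 81.4, 83.2 and 79.7 CPM to 33.2, 37.9 and 37.8 CPM, a log2FC of -1.13 (SE 0.0475, edgeR FDR = 7.4e-13). In each area the N and T libraries lay far apart.

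*Fosb*, whose truncated product accumulates in neurons under repeated stimulation, was at 40.7, 45.2 and 44.1 CPM in F/M-N and at 20.4, 22.7 and 24.1 CPM in F/M-T, a log2FC of -0.92 (SE 0.0605, edgeR FDR = 1.0e-09). In Cb the level was lower, and *Fosb* was at 10.9, 10.6 and 11.5 CPM in Cb-N and at 7.51, 7.09 and 7.04 CPM in Cb-T, a log2FC of -0.59 (SE 0.0898, edgeR FDR = 3.5e-07). The libraries were apart, but the value stood at the fold limit, and the call was lost without Cb-N3 (-0.57), Cb-T2 (-0.58) or Cb-T3 (-0.58).

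*Fos* itself did not reach the fold limit in either area. It was at 91.2, 92.9 and 92.7 CPM in F/M-N and at 64.8, 63.7 and 62.8 CPM in F/M-T, and at 90.0, 88.8 and 90.5 CPM in Cb-N and 77.0, 77.3 and 77.5 CPM in Cb-T. The log2FC of *Fos* were -0.50 in F/M (edgeR FDR = 4.0e-09) and -0.20 in Cb (edgeR FDR = 1.9e-06), both with groups that did not overlap.

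*Atf3*, a stress-induced CREB-family gene that is also switched on in injured neurons, rose in Cb. It was at 2.26, 1.74 and 1.76 CPM in Cb-N and at 6.20, 4.71 and 5.14 CPM in Cb-T, a log2FC of 1.48 (SE 0.155, edgeR FDR = 5.9e-11). All Cb-T libraries exceeded even the F/M libraries, where *Atf3* was at 3.21, 2.88 and 3.13 CPM in N and overlapped with 2.36, 3.35 and 2.70 CPM in T (log2FC -0.10, edgeR FDR = 0.71).

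*Maff*, a small MAF gene without an activation domain, was low everywhere. F/M levels were 1.69, 1.98 and 2.12 CPM in N and 0.788, 1.03 and 1.11 CPM in T (log2FC -0.94, SE 0.218, edgeR FDR = 0.0041). In Cb the groups overlapped, at 0.621, 1.15 and 0.742 CPM in N and 1.10, 1.33 and 0.870 CPM in T (log2FC 0.41, edgeR FDR = 0.23), and without Cb-N2, the highest control, *Maff* was called higher at 0.70.

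No JUN gene was called in either area with all libraries, and among listed genes with at least 200 counts *Jund* had the widest spread in F/M-N, a coefficient of variation of 22.8%. *Junb* was at 6.96, 9.12 and 9.46 CPM in Cb-N and 13.9, 12.5 and 10.7 CPM in Cb-T (log2FC 0.55, edgeR FDR = 8.7e-06), under the fold limit with all libraries and called higher without Cb-N2 (0.60), Cb-N3 (0.62) or Cb-T3 (0.65). In F/M *Junb* was at 73.1, 81.8 and 103 CPM in N and 68.1, 64.0 and 64.9 CPM in T (log2FC -0.36, edgeR FDR = 0.0029). *Jund* was the only listed gene higher in F/M-T at an FDR below 0.1, at 46.0, 55.1 and 71.9 CPM in N against 71.0, 68.8 and 67.6 CPM in T, with overlapping groups (log2FC 0.29, edgeR FDR = 0.029). F/M-N3 was the highest control library for both *Junb* and *Jund*. *Jun* had log2FC of 0.23 in Cb (edgeR FDR = 4.5e-05) and 0.10 in F/M (edgeR FDR = 0.24).

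*Fosl1*, which encodes another FOS partner, was near the limit of detection. Its raw counts were 2, 0 and 1 in Cb-N and 10, 14 and 12 in Cb-T, a ratio of summed counts, scaled for library size, of 10.9 with an exact 95% interval for counting error of 3.44 to 55.2. The F/M counts were 6, 0 and 3 in N and 2, 3 and 1 in T. The Cb-T libraries were each above every other library, at no more than 14 counts.

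The sum of the EGR zinc finger genes, targets of SRF and ERK signaling, changed in opposite directions in Cb and F/M. In F/M-N they summed to between 642 and 658 CPM and in F/M-T to between 387 and 394 CPM, 60.0% of the control mean. In Cb-N they summed to between 60.2 and 65.2 CPM and in Cb-T to between 80.4 and 86.4 CPM, 131.5% of the control mean.

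*Egr1* was at 414, 404 and 410 CPM in F/M-N and at 236, 235 and 241 CPM in F/M-T, a log2FC of -0.75 (SE 0.0282, edgeR FDR = 1.1e-13). In Cb it was higher in every mutant library, at 58.3, 53.3 and 55.3 CPM in N and 77.9, 74.1 and 73.0 CPM in T (log2FC 0.44, edgeR FDR = 6.5e-13), under the fold limit.

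*Egr2*, best known for its role in hindbrain segments and in myelinating Schwann cells, was at 24.6, 22.7 and 23.8 CPM in F/M-N and at 12.8, 13.3 and 12.9 CPM in F/M-T (log2FC -0.84, SE 0.0638, edgeR FDR = 8.7e-09). In Cb it had 2, 2 and 6 raw counts in N and 26, 17 and 20 in T. Only Cb-T met the count minimum, so the direction of its call there was fixed by the filter, and the values are given as a description. The ratio of its summed counts was 5.71 with an exact 95% interval for counting error of 2.91 to 12.5. Even so, the mean Cb-T level was 3.67% of that in F/M-N.

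*Egr3*, which muscle spindles and memory formation require, was at 187, 188 and 192 CPM in F/M-N and at 119, 118 and 120 CPM in F/M-T (log2FC -0.64, SE 0.0314, edgeR FDR = 7.9e-12). In Cb it was at 1.46, 1.33 and 1.44 CPM in N and 3.46, 2.62 and 2.90 CPM in T (log2FC 1.09, SE 0.187, edgeR FDR = 3.6e-06). The groups were apart in both areas, and Cb-T reached 1.58% of the F/M-N level.

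*Egr4* did not share the Cb increase. It was at 5.32, 5.50 and 5.98 CPM in Cb-N and 3.92, 3.58 and 3.604 CPM in Cb-T (log2FC -0.58, edgeR FDR = 1.1e-04), at the fold limit, and was called lower without Cb-N1 (-0.63), Cb-N2 (-0.60) or Cb-T1 (-0.63). F/M levels were 22.6, 27.0 and 33.1 CPM in N and 20.6, 20.5 and 19.95 CPM in T (log2FC -0.41, edgeR FDR = 0.0036).

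All 3 NR4A genes, which encode ligand-independent nuclear receptors that CREB switches on, were lower in the mutant in both areas at an FDR below 0.1, as were 27.9% of all tested genes in Cb and 14.4% in F/M. Their sum in the mutant was 39.8% of the control mean in Cb and 54.6% in F/M.

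*Nr4a3* had the lowest log2FC of the listed genes in both areas. It was at 91.2, 96.1 and 93.9 CPM in Cb-N and at 16.1, 17.3 and 15.3 CPM in Cb-T, a log2FC of -2.51 (SE 0.0472, edgeR FDR = 1.1e-36). In F/M it was at 77.0, 77.6 and 79.0 CPM in N and at 32.3, 31.9 and 30.6 CPM in T, a log2FC of -1.27 (SE 0.0424, edgeR FDR = 1.6e-14). The 3 libraries of each group lay close together.

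*Nr4a2*, needed for midbrain dopamine neurons, was at 75.8, 77.9 and 78.0 CPM in Cb-N and at 29.5, 29.4 and 28.3 CPM in Cb-T, a log2FC of -1.39 (SE 0.0421, edgeR FDR = 6.5e-29). The F/M levels were 64.5, 64.8 and 62.7 CPM in N and 45.7, 47.1 and 46.3 CPM in T (log2FC -0.43, edgeR FDR = 1.6e-07), apart but under the fold limit.

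*Nr4a1* showed the larger change in F/M. It was at 186, 174 and 176 CPM in F/M-N and at 98.0, 92.8 and 100 CPM in F/M-T (log2FC -0.85, SE 0.0382, edgeR FDR = 1.7e-12), and at 70.8, 73.0 and 73.7 CPM in Cb-N and 51.7, 51.2 and 51.9 CPM in Cb-T (log2FC -0.48, edgeR FDR = 2.7e-14). The 2 changes differed by 0.39 on the log2 scale (edgeR FDR of the interaction = 1.2e-06).

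None of the 3 KLF genes and none of the 7 other nuclear genes was called in either area, as were 88.6% of all genes tested in both areas. Of the KLF zinc finger genes, *Klf4* was lower in both areas at an FDR below 0.1, with log2FC of -0.48 in Cb and -0.29 in F/M, *Klf10* was lower in F/M (-0.33), and *Klf2*, a gene of vessel walls that responds to blood flow, passed in neither. *Npas4*, the immediate early gene most specific to calcium entry in neurons, was at 55.8, 59.1 and 56.0 CPM in F/M-N and 45.2, 42.9 and 45.5 CPM in F/M-T (log2FC -0.32, edgeR FDR = 2.4e-05). In Cb, *Npas4* did not pass (log2FC -0.12, edgeR FDR = 0.30), with overlapping groups.

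The repressor genes *Crem* and *Nfil3* were lower in both areas, by log2FC between -0.18 and -0.34. *Ier5*, which encodes a nuclear stress-response protein, was at 12.4, 14.9 and 14.1 CPM in Cb-N against 18.6, 18.1 and 16.2 CPM in Cb-T (log2FC 0.36) and at 56.5, 57.5 and 64.5 CPM in F/M-N against 43.1, 43.8 and 43.5 CPM in F/M-T (-0.42). *Btg2*, an antiproliferative gene, was higher in Cb (0.44) and not different by the test in F/M (0.05, edgeR FDR = 0.40). *Csrnp1* was lower in F/M (-0.32), and *Ier2* passed in neither area.

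The feedback genes encode proteins that limit the signals behind the early response. The 10 summed to 80.2% of the control mean in Cb and 80.5% in F/M, and in each area 2 were called, both lower and both phosphatases of the MAP kinases, where 2.66% of all tested genes were called lower in Cb and 0.858% in F/M.

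*Dusp5* was at 114, 108 and 118 CPM in Cb-N and at 69.8, 73.7 and 74.0 CPM in Cb-T (log2FC -0.63, SE 0.0356, edgeR FDR = 4.2e-19). F/M levels were 18.7, 18.8 and 19.5 CPM in N and 10.3, 9.89 and 10.2 CPM in T (log2FC -0.87, SE 0.0689, edgeR FDR = 1.4e-08). The groups lay apart in each area, although the control level was far higher in Cb.

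*Dusp4* was at 9.40, 9.35 and 7.88 CPM in Cb-N and 4.89, 6.24 and 5.72 CPM in Cb-T (log2FC -0.65, SE 0.106, edgeR FDR = 1.7e-06), and at 11.5, 11.8 and 13.2 CPM in F/M-N and 6.48, 8.86 and 7.70 CPM in F/M-T (log2FC -0.63, edgeR FDR = 1.3e-04). Both calls depended on single libraries: the Cb call was lost without Cb-T1 (-0.56), and the F/M call without F/M-N3 (-0.57) or F/M-T1 (-0.53).

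The other feedback genes moved less. *Trib1*, a pseudokinase gene, had log2FC of -0.56 in Cb and -0.53 in F/M, and in Cb it was called lower without Cb-N1 (-0.60) or Cb-T1 (-0.61). *Sik1*, a kinase gene that restrains CREB coactivators, had -0.30 in Cb and -0.50 in F/M, *Dusp14* -0.24 and -0.43, and *Dusp6* -0.18 and -0.30, all at an FDR below 0.1. *Dusp1* was lower in Cb alone (-0.16). *Rgs2*, a gene that dampens G protein signaling, was higher in Cb (0.32) and did not pass in F/M. *Gadd45b*, linked to DNA demethylation at activity-regulated genes, was at 7.54, 6.78 and 8.53 CPM in Cb-N against 11.6, 10.5 and 9.03 CPM in Cb-T (log2FC 0.46) and at 13.2, 15.4 and 17.4 CPM in F/M-N against 12.7, 11.1 and 11.3 CPM in F/M-T (-0.37). *Gadd45g* passed in neither.

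Of the synaptic and secreted genes, *Homer1* fell in both areas. It encodes postsynaptic scaffold proteins of metabotropic glutamate receptors, of which the short form is the activity-induced one, and the counts do not separate its transcripts. *Homer1* was at 256, 266 and 245 CPM in F/M-N and 141, 152 and 141 CPM in F/M-T (log2FC -0.79, SE 0.0360, edgeR FDR = 2.1e-12). In Cb it was at 69.6, 68.5 and 63.7 CPM in N and 43.3, 46.3 and 41.6 CPM in T (log2FC -0.61, SE 0.0433, edgeR FDR = 7.8e-16), and the call was lost without Cb-T3 (-0.575).

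*Arc* was at 341, 336 and 338 CPM in F/M-N and at 211, 207 and 215 CPM in F/M-T (log2FC -0.65, SE 0.0289, edgeR FDR = 1.7e-12). In Cb the order was the opposite, with 19.9, 22.4 and 20.9 CPM in N and 28.6, 32.0 and 28.5 CPM in T (log2FC 0.51, edgeR FDR = 7.3e-10), below the fold limit. The Cb-T mean was 8.79% of that in F/M-N.

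*Nptx2*, which encodes a secreted pentraxin that gathers AMPA receptors, rose in Cb. It was at 1.11, 0.871 and 1.35 CPM in Cb-N and at 3.67, 3.22 and 4.06 CPM in Cb-T (log2FC 1.73, SE 0.192, edgeR FDR = 2.9e-10), 7.64% of the F/M-N mean. In F/M it was lower in every mutant library, at 47.3, 46.8 and 49.2 CPM in N and 37.2, 37.9 and 38.0 CPM in T (log2FC -0.31, edgeR FDR = 4.6e-05).

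*Inhba*, the gene of the activin A subunit, was at 5.94, 4.22 and 5.01 CPM in Cb-N and at 9.61, 7.45 and 7.79 CPM in Cb-T (log2FC 0.72, SE 0.117, edgeR FDR = 1.5e-06). In F/M its groups overlapped, at 11.1, 14.9 and 12.8 CPM in N and 10.99, 12.3 and 10.7 CPM in T (edgeR FDR = 0.27). *Bdnf*, the neurotrophin gene, was lower in both areas without reaching the fold limit, with log2FC of -0.55 in Cb (edgeR FDR = 3.8e-09) and -0.41 in F/M (edgeR FDR = 2.7e-05).

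**Figure D3:**
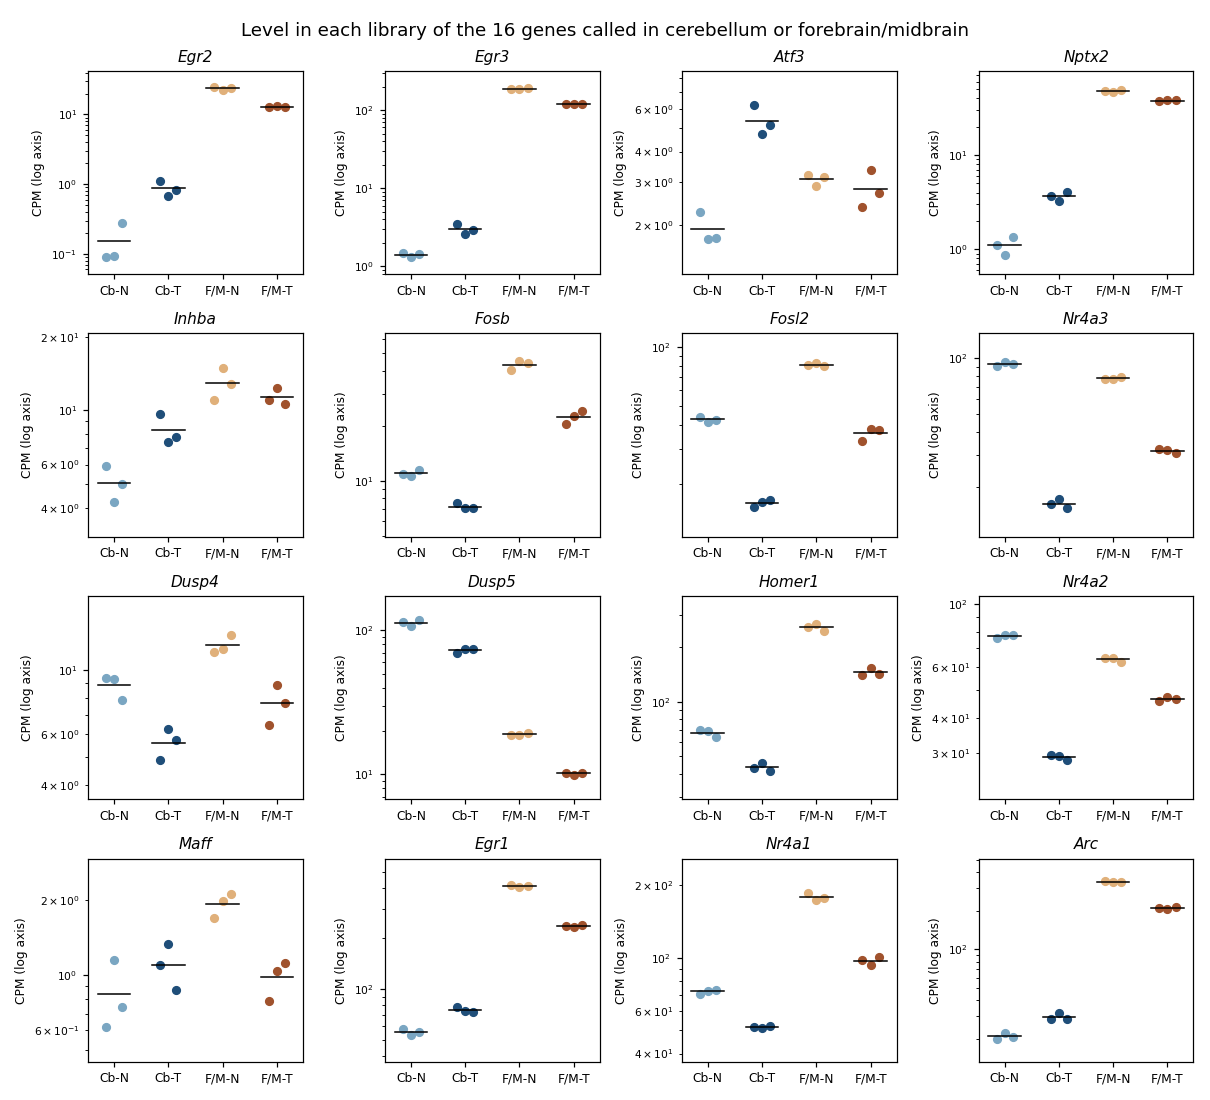
CPM on a log axis (each panel with its own range) of the 16 genes called in either area, for Cb-N, Cb-T, F/M-N and F/M-T; each point is 1 library and each bar the mean of 3. The first 5 panels hold the genes that rose in Cb-T, the next 6 those that fell in both areas, then *Nr4a2*, which was called lower in Cb, and in the last 4 panels those called lower in F/M alone.

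Rapid transcription factors and later effectors were also compared by count. In F/M, 8 of 25 tested transcription factor genes and 4 of 15 effector genes were called lower, where 0.858% of all tested genes were, with median log2 fold changes of -0.36 and -0.41 (0.01 over all genes). In Cb, 3 of 25 transcription factor genes were higher, 1 of them *Egr2*, whose direction the filter fixed, and 4 lower (median -0.03), and 2 of 15 effectors were higher and 3 lower (median -0.18), where 8.54% of all tested genes were called higher and 2.66% lower. The summed level in the mutant was 77.8% of control in Cb and 66.9% in F/M for the transcription factor genes, and 81.8% and 68.8% for the effectors.

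The interaction asked whether the T against N change differed between the areas, over all 12 libraries. It was called for 14 of the 41 genes: in 12 the Cb change was the higher (6.41% of 17482 tested genes) and in 2 the lower (1.20% of all). The 12 were *Fosl1*, *Junb*, *Atf3*, *Maff*, *Egr1*, *Egr2*, *Egr3*, *Ier5*, *Gadd45b*, *Arc*, *Nptx2* and *Inhba*. Of these, *Fosl1* met the count minimum in Cb-T alone, so its direction was set by the filter, which leaves 11. The 2 were *Nr4a2* and *Nr4a3*, which were lower in both areas with the larger change in Cb. At any fold change, 8 genes were higher in Cb-T and lower in F/M-T (*Junb*, *Egr1*, *Egr2*, *Egr3*, *Ier5*, *Gadd45b*, *Arc* and *Nptx2*, with the direction of *Egr2* in Cb fixed by the filter), 1, *Jund*, was the reverse, and 18 were lower in both. Of all genes tested in both areas these classes held 2.06%, 0.598% and 9.77%. *Egr1* and *Arc* differed by 1.22 (standard error 0.0468, edgeR FDR = 1.8e-18) and 1.18 (standard error 0.0614, edgeR FDR = 2.5e-15) on the log2 scale.

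No gene listed upstream of the early response reached the call. Of 30 kinases, calcium channels, coactivators and transcription factors such as CREB and SRF, 0 were called in either area by edgeR. At an FDR below 0.1 and any fold change, 4 were higher and 18 lower in Cb, where 29.8% and 27.9% of all tested genes were, and 0 were higher and 15 lower in F/M (16 lower at an unadjusted p below 0.05), where 12.8% and 14.4% of all were. The SRF gene *Srf* was at a mean of 59.4 CPM in F/M-N against 46.0 CPM in F/M-T (log2FC -0.34, edgeR FDR = 8.8e-06), and in Cb its change did not pass (-0.08, edgeR FDR = 0.21). *Creb1* had -0.17 in Cb and -0.07 in F/M, where it did not pass (edgeR FDR = 0.29).

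Of 30 further activity-regulated genes outside the 41, 9 were called higher and 2 lower in Cb (8.54% and 2.66% of all tested genes), and 0 higher and 2 lower in F/M (2.63% and 0.858% of all). At any fold change, 14 were higher and 12 lower in Cb, where 29.8% and 27.9% of all tested genes were, and 2 higher and 15 lower in F/M, where 12.8% and 14.4% were. Of the 9 called higher in Cb, 4 had met the count minimum in Cb-T alone, *Pdyn* and *Crh* among them. The 2 called lower were the receptor gene *Gpr3* and the RAS pathway inhibitor gene *Spry4* in both areas. *Tac1*, a neuropeptide gene called higher in Cb, went from 0.985 to 8.32 CPM there (means of 3). *Pdyn*, which could only be called higher, went from 0.485 to 7.60 CPM. *Crh*, which could also only be called higher, was at 0.633 CPM in Cb-T. In Cb-N it was on average below the floor of 3 counts per library, so its change has no firm size. Of 13 clock genes, *Per1* and *Per2*, which CREB also activates, were called lower in both areas, with log2 fold changes of -0.92 and -1.21 in Cb and -0.76 and -0.72 in F/M. Of all genes tested in both areas, 0.287% were called lower in both. Against the same any-fold shares of all genes, 3 clock genes were higher and 9 lower in Cb, and 0 higher and 10 lower in F/M. Of 10 glucocorticoid-responsive genes, 3 were called higher and 0 lower in each area, while at any fold change 4 were higher and 3 lower in Cb, near those shares, and 3 higher and 4 lower in F/M, with median log2 fold changes of -0.07 and -0.09 and list sums at 138% and 97.0% of the control mean.

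Markers of other cells and regions moved with genotype. Of 14 hindbrain and spinal genes, mostly *Hox* genes, 12 were tested in Cb, of which 11 met the count minimum in Cb-T alone. All 11 were called higher, a direction that the filter fixed (8.54% of all tested genes were called higher), so their levels are given as a description. Without the glycine transporter gene *Slc6a5*, which was left out after its value was seen because it made up most of the sum, the other 13 summed to between 0.464 and 0.688 CPM in Cb-N, with 5 of them at 0 in every library, and to between 14.3 and 15.4 CPM in Cb-T. The forebrain marker *Emx1* was on average below the floor of 3 counts per library in Cb, at means of 0.121 CPM in N and 0.0970 CPM in T, while *Lamp5*, also on the forebrain list, went from 1.42 to 14.3 CPM. *Lamp5* was the 1 gene called of the 6 tested on the forebrain excitatory list in Cb, of which 2 were higher and 2 lower at an FDR below 0.1 (median log2 fold change -0.26), and the list summed to 94.0% of the control mean. The striatal list had 3 of 8 genes called higher in Cb, *Drd1*, which met the count minimum in Cb-T alone, *Drd2* and *Tac1*. At an FDR below 0.1, 4 of its genes were higher and 2 lower, where 29.8% and 27.9% of all tested genes were, and its sum in Cb-T was 88.0% of the control mean. The part of these shifts in the increases of *Atf3*, *Egr2*, *Egr3*, *Nptx2* and *Inhba* was not tested.

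Among resident cerebellar neurons, 7 of 8 granule cell markers and 8 of 8 Purkinje cell markers were lower in Cb-T at an FDR below 0.1 and none was called, with median log2 fold changes of -0.34 and -0.24, where 27.9% of all tested genes were lower. The 8 pan-neuronal markers were less one-sided, with 2 higher (29.8% of all tested genes), 4 lower and 0 called in Cb. Their median log2 fold change was -0.05 and their sum 91.4% of the control mean. *Eomes*, on the olfactory bulb list and also a marker of unipolar brush cells of the cerebellum, went from 53.2 to 11.4 CPM in Cb (log2 fold change -2.20, edgeR FDR = 4.0e-32). The part of these cells in the decreases of *Nr4a3*, *Nr4a2* and *Fosl2* in Cb was not tested.

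In F/M, 6 of 6 olfactory bulb markers were called lower (0.858% of all tested genes). Of these, 3 met the count minimum in F/M-N alone, so they could only be called lower, which leaves 3. The list summed to between 40.5 and 42.0 CPM in F/M-N and to between 14.9 and 16.4 CPM in F/M-T. None of the 8 pan-neuronal, 8 forebrain excitatory and 8 striatal markers was called in F/M, with median log2 fold changes of -0.03, -0.09 and -0.04. At an FDR below 0.1, 3 of the pan-neuronal, 4 of the forebrain excitatory and 2 of the striatal markers were lower, and 1 forebrain excitatory marker was higher, where 14.4% and 12.8% of all tested genes were. The part of the olfactory bulb in the decreases of the 12 genes was not tested. Microglial markers were higher in both areas, 8 of 10 called in Cb (sum 102 to 110 CPM in N, 373 to 390 CPM in T) and 6 of 10 in F/M (315 to 321 CPM in N, 474 to 476 CPM in T), where 8.54% and 2.63% of all tested genes were called higher, and 1 marker in each area met the count minimum in the T group alone. Their part in the changes described was not tested.

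In Cb, 2 of 8 astrocyte, 1 of 8 oligodendrocyte, 0 of 8 endothelial and 1 of 5 blood markers were called higher and none lower, where 8.54% of all tested genes were called higher. At an FDR below 0.1 and any fold change, 7 of the astrocyte, 8 of the oligodendrocyte, 5 of the endothelial and 5 of the blood markers were higher in Cb-T, and 1 astrocyte marker was lower, with list sums at 129%, 131%, 111% and 136% of the control mean, while 29.8% of all tested genes were higher. In F/M, 1 of 8 astrocyte markers was called higher, and 0 oligodendrocyte, endothelial and blood markers were called, where 2.63% of all tested genes were called higher. At any fold change, 8 of the astrocyte, 1 of the oligodendrocyte, 3 of the endothelial and 5 of the blood markers were higher in F/M-T and none was lower, while 12.8% of all tested genes were higher. The part of these cells in the changes described was not tested. Of the other hindbrain and olfactory bulb genes, *Slc6a5* was called higher in F/M, and in Cb 1 of 3 tested olfactory bulb genes was called higher, having met the count minimum in Cb-T alone, and 1, *Eomes*, was called lower. The few tested Schwann cell markers and the 7 choroid plexus and meninges markers had 0 calls in both areas. At any fold change, 1 Schwann cell marker was higher in Cb and 1 lower in F/M, and the choroid plexus and meninges list had 1 higher and 2 lower in Cb, and 2 higher and 1 lower in F/M, where its sum was 135.0% of the control mean. In F/M, 1 of 7 tested Purkinje markers was called higher (2.63% of all tested genes were) and 0 granule cell markers were called.

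**Figure D4:**
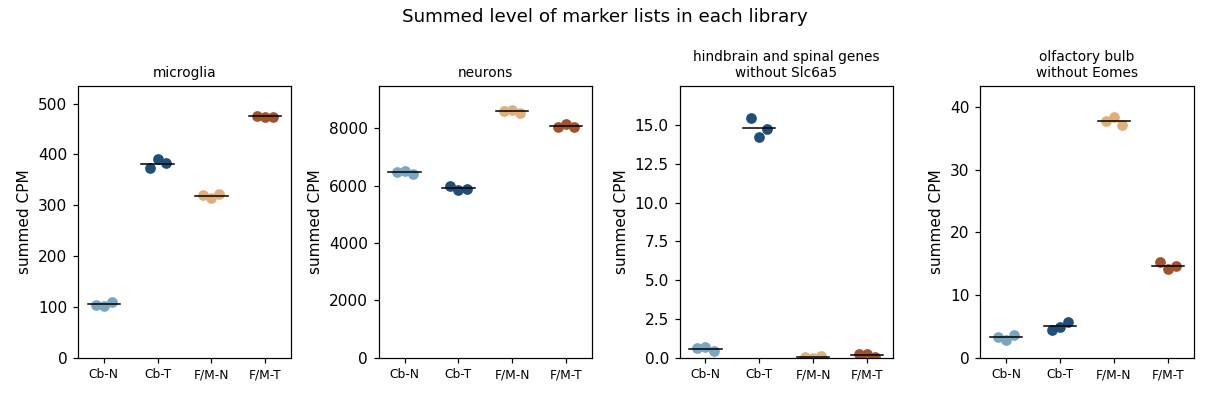
Summed CPM per library of 4 marker lists, with a bar at the mean of 3 libraries: microglia, pan-neuronal genes, hindbrain and spinal genes without *Slc6a5*, and olfactory bulb genes without *Eomes*. The hindbrain and spinal sum is high in the 3 Cb-T libraries alone, the olfactory bulb sum is lower in F/M-T than in F/M-N, and the neuronal sum differs least.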

How the data were processed

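Poly(A) RNA of Cb and F/M was made into stranded libraries and sequenced with single-end reads of 50 bases. The authors aligned the reads to GRCm38 (mm10) with STAR and counted reads per gene with featureCounts (Rsubread 1.26.1), and deposited raw counts, 1 table per library. The annotation release, the strand setting and the handling of multiply aligned reads are not given in the sources used here. RNA integrity was stated to be high in all samples.

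Counts were analysed in R 4.3.3 with edgeR 4.0.16. For each comparison, genes were kept by filterByExpr (minimum count 10, minimum total 15), scaled by TMM, and tested by glmQLFit and glmQLFTest with Benjamini-Hochberg adjustment over all genes kept. Genotype was the only factor within an area, and the interaction used all 12 libraries. Calls needed an FDR below 0.1 and a change of at least 1.5-fold. CPM are TMM-scaled, and RPKM used the exon lengths of GENCODE. The floor of 3 counts per library was 0.121 to 0.139 CPM and covers counting error only. The scripts were tested on simulated data. DESeq2 1.42.0, limma-voom (limma 3.58.1), RLE scaling, other filters and limits, a replicate block and leaving out each library were the alternatives. The 41 genes and all lists were chosen with earlier results of these data known. All 41 are accounted for, those called are given by library, and at most 3 genes with the largest changes of another list, or those a comparison turns on, are named; *Slc6a5*, *Eomes*, *Lamp5*, *Emx1*, *Srf* and *Creb1* among them were named after their values were seen. A result for 1 listed marker is not reported here.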

Additional observations from a re-analysis of the deposited data

Results flagged for a closer look

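The change with genotype differed between Cb and F/M for 14 of the 41 genes, by the interaction term of edgeR's quasi-likelihood test (FDR below 0.1 and a difference of at least 1.5-fold). The values here are the log2 fold change in Cb minus that in F/M. The difference was 3.34 for *Egr2*, 2.06 for *Nptx2*, 1.75 for *Egr3*, 1.60 for *Atf3*, 1.37 for *Maff*, 1.22 for *Egr1* and 1.18 for *Arc*. It was 0.93 for *Junb*, 0.90 for *Inhba*, 0.84 for *Gadd45b* and 0.80 for *Ier5*, and below 0 for *Nr4a2* (-0.94) and *Nr4a3* (-1.23). *Fosl1*, which met the count minimum in Cb-T alone, had a fitted value of 3.88, which depends on the prior count because 2 of the 6 control libraries were at 0 counts, and its call was lost without F/M-N1 and under DESeq2. No group has over 3 libraries, so single libraries were not screened for outlying values.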

How the results depend on the processing

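The counts of called genes depended most on the limit on fold change. Without it, 33 of 40 genes passed in Cb against 12 with it, 31 against 12 in F/M, and 25 against 14 in the interaction. Leaving out each library in turn gave 11 to 16 calls in Cb, 11 to 12 in F/M, 13 to 15 in the interaction and 25 to 26 between the control areas. Without F/M-N3 or without Cb-T1, *Jund* also had an interaction, and *Bdnf* was not called between control areas without F/M-N1. A mean count of at least 50 removed *Egr2* in Cb, *Maff* in F/M and between control areas, and *Maff* and *Fosl1* from the interaction by construction. *Egr4* was also called lower in Cb by DESeq2, with RLE scaling and in 1 fit of 12 libraries, and *Fosl1*, with counts over the minimum in Cb-T alone, higher in Cb without a filter, in that fit, and without Cb-N1, Cb-N2, Cb-N3 or Cb-T1.

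Directions changed only for genes that did not pass with all libraries. In Cb these were *Ier2* (0.01 without Cb-N3, 0.001 without Cb-T3, over a range from -0.074 to 0.01), *Gadd45g* (0.041 without Cb-N3, 0.006 without Cb-T3, over a range from -0.071 to 0.041) and *Csrnp1* (-0.009 by DESeq2, -0.008 with RLE, -0.013 in 1 fit of 12 libraries, 0 with no filter, and -0.162, -0.053 and -0.024 without Cb-N2, Cb-T2 or Cb-T3, over a range up to 0.093). In F/M they were *Atf3* (0.009 without F/M-T1, over a range from -0.243) and *Ier2* (0.009 without F/M-N3, 0.004 without F/M-T2, over a range from -0.088). The cause was not tested.

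Over all genes, 1835 were called in Cb and 581 in F/M. Asking for a mean of 50 counts or more left 897 and 259, no limit on fold change gave 9442 and 4541, and DESeq2 called 365 in F/M. The interaction was called for 1331 genes, against 877 with that minimum and 4816 with no limit on fold change, and the control areas differed in 7020, against 13459 with no such limit.

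Libraries of N and T, and of Cb and F/M, share replicate numbers. Same-numbered libraries did not deviate together (correlations of deviations from -0.016 to 0.062, against -0.071 to 0.059 for different numbers), so the number pairs nothing that these data show. Cb and F/M of a genotype may come from the same mice. Without the replicate block, the interaction and the comparison of control areas treated their libraries as independent. With the replicate block, 12 genes were called in Cb, 12 in F/M, 14 in the interaction and 26 between control areas, the same counts as without it. Counts of *Egr2*, *Maff* and *Fosl1* in Cb were few, and the effect of depth was not tested.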
